A study of Gallus gallus with 9 samples.

Results

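Adult liver was set against embryonic liver in the chicken (Gallus gallus), the widest age interval of a series that profiled liver RNA at 3 ages. The members are 6 of the 9 libraries of the series, chosen by their age labels alone: 3 libraries from birds aged 42 weeks, a stage the labels describe as adult and aged, and 3 from embryos at day 13 of incubation. The labels call the 3 libraries of an age biological replicates and name liver as the tissue at both ages. No source used here gives strain, sex, rearing, batch or whether the libraries of an age came from separate animals, so anything else that differed between the groups cannot be told apart from age. P-values measure the spread between these libraries only. The comparison asks how the end points differ, which abundant transcripts of the embryonic liver gave way to others, and how far the order of abundance was kept. The mRNA table lists 13949 genes, of which 11512 had at least 1 FPKM in at least 3 of the 9 libraries and were tested. The table of long non-coding RNAs (lncRNAs, transcripts without a recognised protein product) lists 4127, of which 2213 passed at 0.5 FPKM. FPKM is a level per length of transcript, scaled to the size of the library, so levels can be compared between genes.

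The liver secretes most of the proteins of the blood plasma, and a small number of transcripts for such proteins usually make up much of its messenger RNA. The embryonic organ is still growing and taking on its metabolic tasks. In adult birds the liver is also the main site of fatty acid synthesis, and in laying hens it makes the precursors of egg yolk under the control of oestrogen. Long non-coding RNAs are on the whole less abundant than messenger RNAs and are often restricted to few tissues or stages.

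The genes carry Ensembl identifiers and the lncRNAs carry transcript-unit identifiers, and 0 of the 13949 and 0 of the 4127 matched the gene table at hand. No gene is therefore named or given a function, and the tissue label could not be checked against marker genes. Apart from a few identifiers, features are called by their rank, with rank 1 the highest mean FPKM of an age. Libraries hold no read counts and their depth is unknown. In whole tissue, fewer cells of a type and less RNA per cell cannot be told apart. The third 42-week library stood apart, with 1109 of the tested mRNAs at least 2-fold off the mean of the other 42-week libraries, against 523 and 254 for the other 42-week libraries and 92 to 121 for the embryonic libraries. For the mRNAs and lncRNAs named below whose result it moved most, values without it are given as well.

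Of the 10 most abundant mRNAs of the adult liver, 4 had a mean under 1 FPKM in the embryo. They held ranks 2, 3, 6 and 7 at 42 weeks, and 3 of them were listed at 0 in all embryonic libraries. ENSGALG00000015134, at rank 2, had 52139, 48675 and 10141 FPKM in the 42-week libraries, against 1.39, 0 and 0 FPKM in the embryonic ones. ENSGALG00000001863, at rank 3, had 27207, 25004 and 7630 FPKM at 42 weeks and was listed at 0 in every embryonic library. Both were named from the genes called higher at 42 weeks without overlap, so call and separation come with the choice. Overlap was absent in 69.2% of the tested mRNAs, in either direction. Their log2 differences were 14.43 ± 0.90 and 14.08 ± 0.40 on the log2(FPKM + 1) scale for ENSGALG00000015134 and ENSGALG00000001863 (SE; limma, adjusted p = 6.5e-07 and 5.92e-09). Without the third 42-week library the differences were 15.20 and 14.67. With embryonic values at or near 0, their size depends on the offset. With 0.1 FPKM in place of 1 FPKM and all libraries they were 16.87 and 17.40. The genes at ranks 6 and 7 had 12772, 10946 and 2134 FPKM, and 9245, 8346 and 2566 FPKM, in the 42-week libraries, and were listed at 0 in the embryo.

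All 4 were lowest in the third adult library. Their joint share of the summed mRNA FPKM was 25.2%, 21.7% and 4.77% in the 42-week libraries, against 0.000253%, 0% and 0% in the embryonic libraries. The mean of the other 42-week libraries was 3.42 to 5.56 times the value of the third for each of the 4. At 5 weeks the 4 together held 0.00239% to 0.0392%. By the test across all genes 790 mRNAs were called higher and 3562 lower at 42 weeks, which is 6.86% and 30.9% of those tested, where a call needed an adjusted p under 0.05 and a log2 difference of at least 1 in either direction. Of the 10 most abundant adult mRNAs 5 were called higher, a count that the choice by adult level favours. The gene at rank 5 was the only one of them well expressed in the embryo. It had 11568, 9198 and 5338 FPKM at 42 weeks and 2967, 2752 and 2895 FPKM at day 13 (log2 difference 1.53 ± 0.31 SE, adjusted p = 0.00133).

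The remaining 5 of the 10 most abundant adult mRNAs were also among the 10 most abundant of the embryo. ENSGALG00000035219 had the highest mean FPKM at both ages, with 35743, 35579 and 80437 FPKM at 42 weeks and 54833, 71678 and 74376 FPKM at day 13. At 42 weeks it was first in the third library alone, and second to ENSGALG00000015134 in the other 2. Through the third library the groups overlapped, and the log2 difference was -0.50 ± 0.49 (SE; adjusted p = 0.382). Without that library the log2 difference was -0.90 ± 0.35 (SE; adjusted p = 0.0381), under the size needed for a call, and the gene stood at adult rank 2. By itself it held 8.87%, 8.31% and 17.1% of the summed FPKM in the 42-week libraries, against 9.95%, 13.3% and 13.8% in the embryonic ones. ENSGALG00000009268, ENSGALG00000009262 and ENSGALG00000009266 were at ranks 9, 10 and 15 in the adult and 6, 8 and 9 in the embryo. ENSGALG00000009268 had 4215, 4490 and 6164 FPKM at 42 weeks and 6445, 7450 and 6937 FPKM at day 13, a log2 difference of -0.50 ± 0.31 that did not pass (SE; adjusted p = 0.167). Without the third 42-week library it was -0.67 ± 0.25 (SE; adjusted p = 0.0338), again too small for a call. ENSGALG00000009262 had 3485, 3607 and 4957 FPKM against 3957, 4414 and 3995 FPKM in the embryo, and ENSGALG00000009266 had 2441, 2705 and 3629 FPKM against 3488, 4317 and 3779 FPKM. In all 3 the third 42-week library was the highest of its age, and without it the differences of the other two were -0.22 (adjusted p = 0.419) and -0.58 (adjusted p = 0.0502). Their adjusted p-values of 0.167 to 0.878 do not show that the levels were equal, and the signs of the differences turned in some alternatives.

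**Figure D1:**
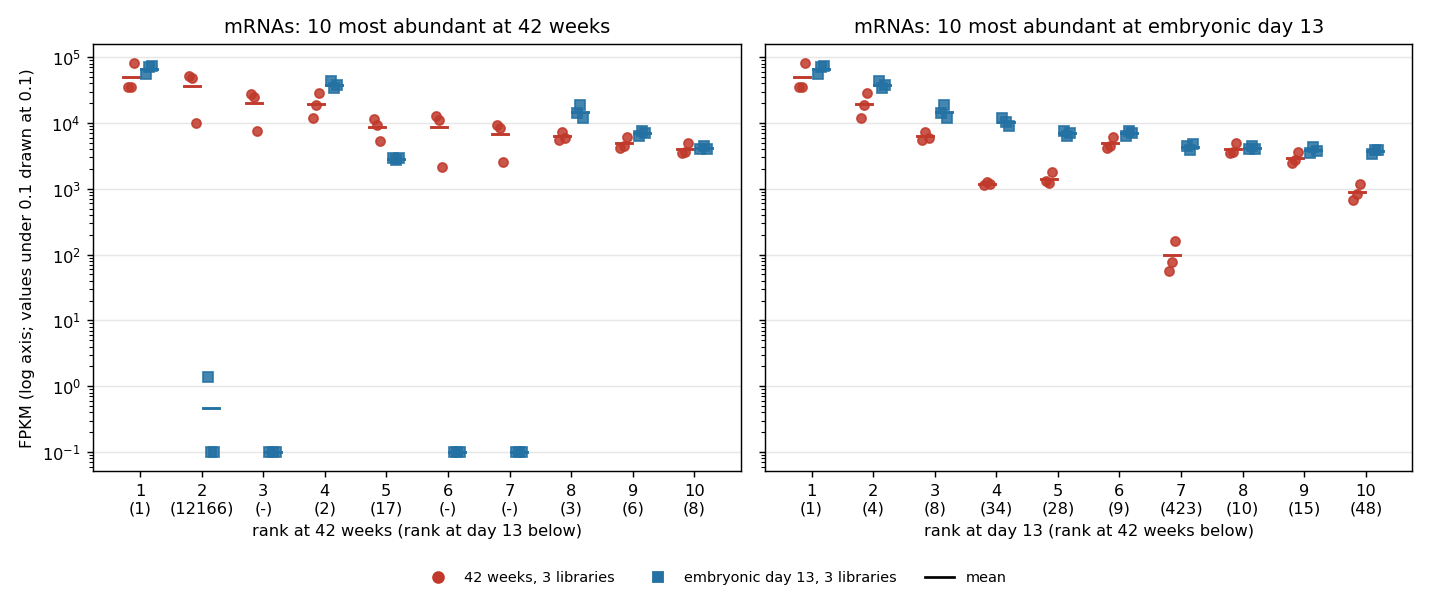
FPKM (log axis) of the 10 most abundant mRNAs at 42 weeks (left) and of the 10 most abundant at embryonic day 13 (right), with 1 point per library and a bar for the mean of 3. The rank at the other age is in brackets, with a dash for genes listed at 0 there, and values under 0.1 FPKM are drawn at 0.1; adult ranks 2, 3, 6 and 7 have embryonic points at or near that floor, whereas no gene of the right panel is near it at 42 weeks.

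Of the 10 most abundant embryonic mRNAs 6 fell by 42 weeks and 4 were not called, against 30.9% lower among all tested genes, and the choice by embryonic level favours falls. All of them except the gene at rank 7 had at least 676 FPKM in every adult library. ENSGALG00000017926, at rank 4 in the adult and 2 in the embryo, had 11843, 18898 and 28200 FPKM at 42 weeks against 43021, 34093 and 37203 FPKM at day 13 (log2 difference -1.04 ± 0.42 SE, adjusted p = 0.0497). This call lay at the threshold and did not hold in 11 of 15 alternatives, where the adjusted p was 0.0513 to 0.376. Leaving out any 1 of the 6 libraries ended it, except the third 42-week library, without which the difference was -1.34 (adjusted p = 0.00392). ENSGALG00000006453, at rank 8 in the adult and 3 in the embryo, had 5495, 7281 and 5976 FPKM at 42 weeks against 14315, 18631 and 11811 FPKM at day 13 (log2 difference -1.24 ± 0.37 SE, adjusted p = 0.0123). Both genes were named from those called lower without overlap. The call of ENSGALG00000006453 was lost in 3 of 15 alternatives. Its differences there were -0.63 after median scaling, -0.91 at equal summed FPKM and -1.07 without the second embryonic library (limma, adjusted p = 0.0648).

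Larger falls were found at embryonic ranks 4 and 7. The gene at embryonic rank 4 had 1143, 1271 and 1192 FPKM at 42 weeks, against 12096, 10333 and 8878 FPKM at day 13, which put its mean 8.68 times higher in the embryo. The gene at embryonic rank 7 had 56.2, 78.2 and 160 FPKM in the adult libraries and 4431, 3871 and 4861 FPKM in the embryonic ones, and dropped to rank 423 (log2 difference -5.60 ± 0.39 SE, adjusted p = 1.11e-06). At 5 weeks it still stood at rank 21. It was the gene of the embryonic top 20 with the largest loss of rank; the other 19 were within the top 76 at 42 weeks. Further down, the largest loss of rank in the embryonic top 100 was that of the gene at embryonic rank 51, which stood at rank 3769 in the adult. It had 1.48, 19.3 and 8.53 FPKM at 42 weeks, against 913, 1143 and 1334 FPKM at day 13.

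The 100 most abundant genes of each age were compared next, a list that closed at 386 FPKM at 42 weeks and 635 FPKM at day 13 (the next genes had 383 and 632 FPKM). The lists shared 50 genes. Between single libraries of different ages 47 to 54 of 100 were shared, whereas libraries of one age shared 77 to 88 at 42 weeks and 88 to 91 at day 13. The turnover between the ages therefore exceeded the spread between libraries. The lists of 10 shared 5 genes, those of 20 shared 7, those of 50 shared 23 and those of 200 shared 116.

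The genes that entered the top 100 had often been far down the embryonic order, and most of those that left it stayed near the top. The 50 that were in the adult list alone made up 28.5% ± 9.80 of the adult mRNA signal (summed FPKM) and 1.63% ± 0.0591 of the embryonic one (SD, n = 3 each), and 25 of them were beyond rank 1000 in the embryo, 6 being listed at 0 in all embryonic libraries. The 50 in the embryonic list alone held 2.66% ± 0.158 at 42 weeks and 9.42% ± 0.213 at day 13. Of these 30 were still within rank 200 at 42 weeks and 3 were beyond rank 1000. Of the genes in the adult list alone 13 were within rank 200 at day 13. Genes detected at a single age are not listed, which limits how far genes could move. The 50 genes in both lists held 31.8% ± 6.43 at 42 weeks and 41.4% ± 1.77 at day 13. The adult share of the entering genes was 36.2%, 31.8% and 17.4% in the 3 libraries, lowest in the third. These lists were chosen for high values at an age, which fixes much of the direction, so the shares and the following counts are descriptions without a test.

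Of the 100 adult genes 43 were called higher, 22 lower and 35 neither. Of the 100 embryonic genes 2 were called higher, 71 lower and 27 neither, with a median log2 difference of -1.52, against -0.61 over all tested genes. The 50 shared genes had 2 called higher, 22 lower and 26 not called, against 6.86% higher and 30.9% lower over all tested genes. These counts hold for the deposited scale. Of the adult 100, 53 had a higher mean at 42 weeks as deposited and 71 after median scaling. Of the embryonic 100, 93 had a lower mean at 42 weeks as deposited and 79 after median scaling. A list chosen at 5 weeks does not use the libraries compared here. Of the 100 genes most abundant at that age 27 were called higher and 40 lower, so 67% were called, against 37.8% of all tested genes. After scaling all libraries to the same median 55 of these 100 were called, 31 higher and 24 lower, against 26.2% of all genes. The log2(FPKM + 1) scale understates differences of genes with low FPKM. In the fit the 5-week libraries enter the shared estimate of the spread.

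**Figure D2:**
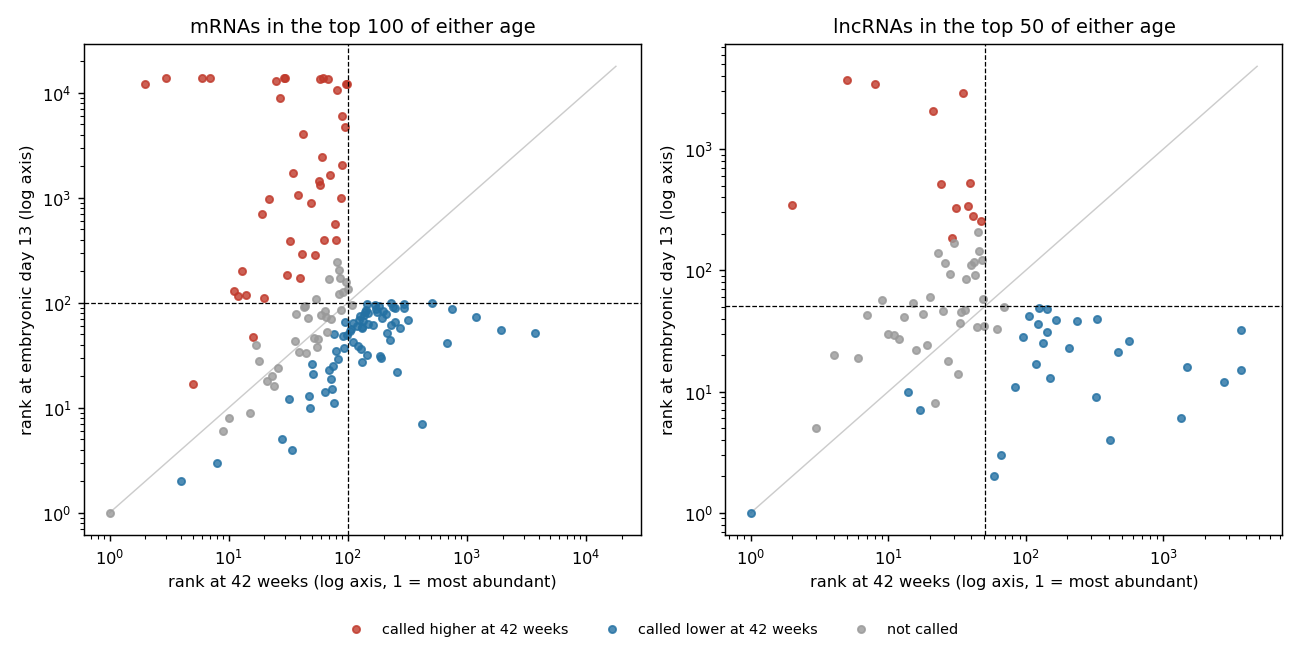
Rank at 42 weeks against rank at embryonic day 13 (both log axes) for the features in the top list of either age, 150 mRNAs on the left and 77 lncRNAs on the right, coloured by the call. Dashed lines mark the ends of the lists. The upper left field holds those that entered by 42 weeks and the lower right field those that left. Entering mRNAs lie as far down as rank 13743 in the embryo (listed at 0), while leaving ones stay within rank 3769 in the adult. Genes detected at a single age are not listed, which limits how far mRNAs could move. Listed lncRNAs have values above 0 in all 9 libraries, so lncRNAs at 0 in any library are missing.

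Ranks within a library do not depend on how libraries are scaled. Of the 11512 tested genes 29.3% had a better rank in all 3 adult libraries than in any embryonic one, and 36.1% a worse rank in all 3, so 65.5% did not overlap. In FPKM 11.9% were above and 57.2% below in all 3, so 69.2% did not overlap. Of the adult top 100, 55 had a worse rank in all embryonic libraries than in any adult one and 22 a better rank. Of the embryonic top 100, 70 had a worse rank in all adult libraries and 8 a better one, and here too the choice of the lists favours the direction. The median gene moved by 1113 to 1206 places between libraries of different ages, by 413 to 572 places between adult libraries and by 265 to 304 places between embryonic ones. Spearman's rho across the tested genes was 0.735 to 0.754 between the ages, 0.932 to 0.969 within 42 weeks and 0.980 to 0.982 within day 13. Genes are not independent replicates. A gene could pass the filter through the 3 libraries of 1 age alone. How far this affected rho between the ages and the shares without overlap was not tested.

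The largest differences were mostly rises. A log2 difference of at least 6 was found for 24 genes that were higher and 5 that were lower at 42 weeks, and of at least 4 for 78 and 71. Between log2 differences of 1 and 4 the falls were in excess. Past 1 there were 790 higher and 3562 lower genes, past 2 there were 326 and 784, and past 4 the counts were the 78 and 71 above. This balance depended on scaling. Setting all libraries to the same median gave 1593 higher and 1426 lower genes, quantile normalization gave 1450 and 1578, and setting them to the same summed FPKM gave 1054 and 2476. Counts at 6 or more stayed at 26 to 30 higher and 2 to 3 lower under the 3 other scalings. A mean of at least 100 FPKM at 42 weeks and under 1 FPKM at day 13 was found for 21 genes, and the reverse for 2. Of the 207 genes listed at 0 in all embryonic libraries 5 reached 1000 FPKM at 42 weeks, whereas of the 115 listed at 0 in all adult libraries none had reached 100 FPKM at day 13, the highest having 69.5 FPKM. All listed genes have values above 0 in 5 or more of the 9 libraries, so the table holds no gene that was detected at 1 age alone. A gene above 0 at day 13 and at 0 from 5 weeks on is therefore missing, as is one above 0 at 42 weeks only. One at 0 at day 13 alone, or at 42 weeks alone, could be listed. How far this affected the balance of the largest rises and falls was not tested.

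Fewer genes carried the mRNA signal in the adult liver. It took 19, 30 and 52 genes to reach 50% of the summed FPKM in the 42-week libraries, against 106, 81 and 91 in the embryonic ones, with no overlap (two-sided exact permutation test, p = 0.1, the smallest that 3 against 3 allow). The 20 most abundant genes of a library held 10.5 percentage points more at 42 weeks. Both differences were smaller without the 4 genes that were under 1 FPKM in the embryo. These genes were chosen for high adult and low embryonic levels, so leaving them out favours smaller differences. Without them in the sum, a choice made after seeing the data, 81, 97 and 59 genes reached 50% at 42 weeks. These numbers overlapped the embryonic 106, 81 and 91, which stayed as they were. The share of the top 20 was then 36.4% ± 2.54 at 42 weeks and 35.2% ± 1.64 at day 13 (SD, n = 3 each). Given that choice, these values are no test of whether the ages differ without the 4 genes.

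**Figure D3:**
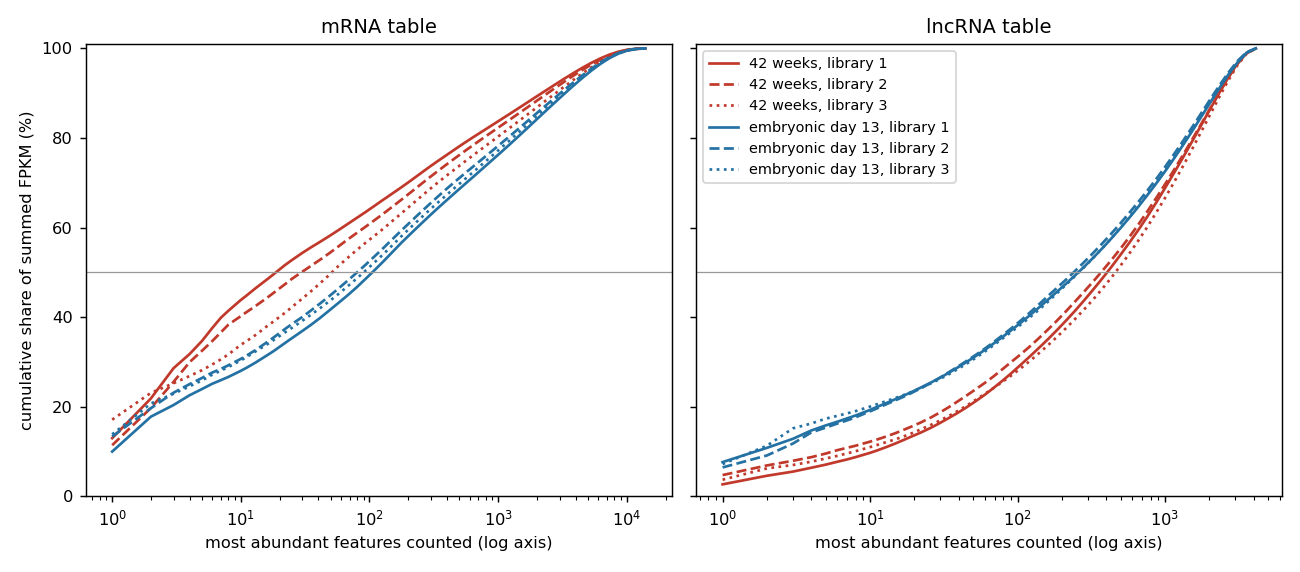
Cumulative share of the summed FPKM (%) against the number of most abundant features counted (log axis), with 1 line per library. In the mRNA table the 3 adult lines cross 50% at 19 to 52 genes, left of the embryonic ones at 81 to 106; in the lncRNA table the order is turned, with 369 to 462 at 42 weeks and 241 to 261 at day 13.

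How much of the signal 2 libraries have in common can be given as the sum, over genes, of the smaller of their shares. For mRNAs it was 53.1% to 67.2% between the ages. The first and second adult libraries had 89.9% in common, and the embryonic libraries had 90.7% to 92.8%. The third adult library had 68.6% and 72.4% in common with the other adult libraries, against its 63.0%, 67.2% and 67.1% with the embryonic ones. Without those 4 genes the third 42-week library shared 78.6% and 80.5% with the other adult libraries, and the range between the ages was 63.9% to 69.0%. In rank order it was nearer to its own age, with a rho of 0.932 and 0.940 against 0.746 to 0.752 with the embryonic libraries.

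**Figure D4:**
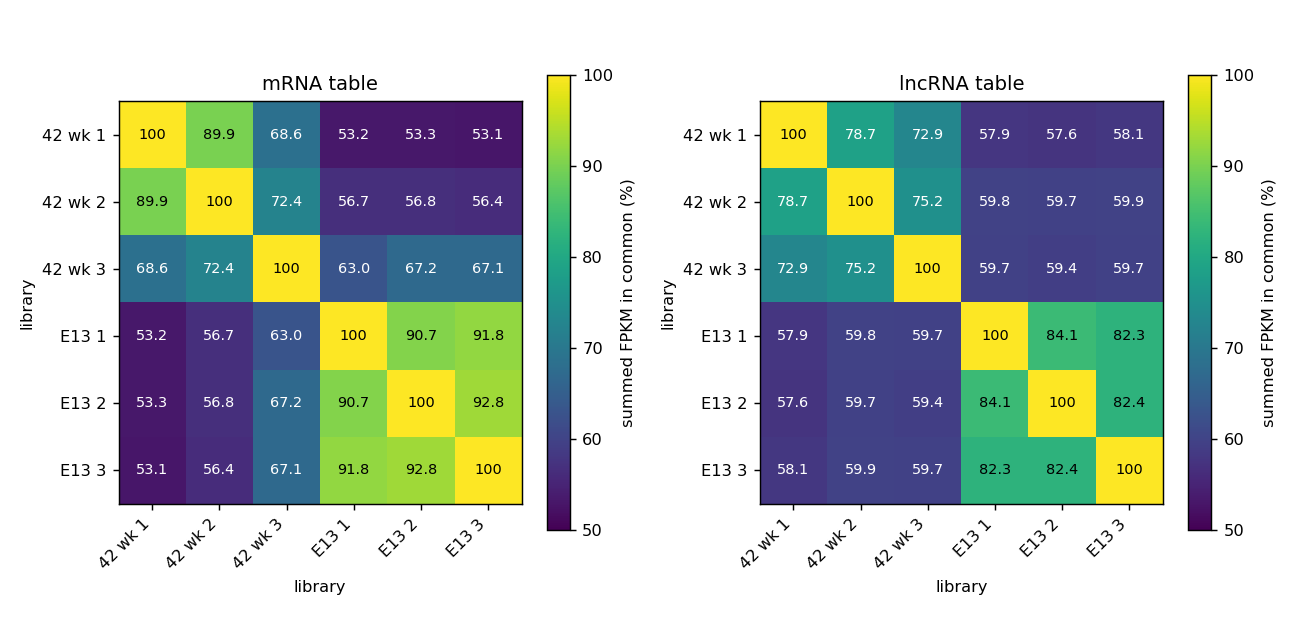
Share of the summed FPKM in common (%) for each pair of the 6 libraries, as the sum over features of the smaller share, for mRNAs (left) and lncRNAs (right). The mRNA panel has high blocks among the embryonic libraries and between adult libraries 1 and 2, with adult library 3 between both blocks; in the lncRNA panel adult library 3 is at 72.9% and 75.2% with its own age and at 59.4% to 59.7% with the embryo.

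Among the adult mRNAs of the top 100 a single one had a library more than 10-fold under both others. ENSGALG00000043533, at rank 17 and singled out after its values were seen, had 3340, 3708 and 0.123 FPKM in the 42-week libraries, with the third the low one, against 1414, 1207 and 1234 FPKM in the embryo. It was not called (log2 difference -2.42 ± 2.36 SE, adjusted p = 0.381), and its mean at 42 weeks describes none of the 3 libraries. Without the third library, a fit added after seeing the data, its log2 difference was 1.46 ± 0.19 (SE; adjusted p = 7.66e-05), which turns the direction. The value left out is the one that singled the gene out, so this fit shows the weight of that library and is no test of a rise. In the embryonic top 100 there were 0 such genes. The gene at adult rank 16 ran close to ENSGALG00000043533 in every library but the third 42-week one. It had 3070, 3322 and 2023 FPKM at 42 weeks and 1264, 1085 and 1112 FPKM at day 13. That gene was called higher (limma, log2 difference 1.25 ± 0.25 SE, adjusted p = 0.00115). Whether reads are shared between the pair cannot be told from these values, so they may not be separate observations.

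Among the lncRNAs the most abundant embryonic transcripts mostly fell, and fewer of the most abundant adult ones had risen. Of the tested lncRNAs 2.3% were called higher and 5.56% lower at 42 weeks, which is 7.86% in all. That share depended on the offset added to FPKM before the log. With 0.1 FPKM in place of 1 FPKM, 213 were called higher and 469 lower. The split of 51 higher and 123 lower lncRNAs also depended on scaling, with 78 and 90 at equal medians, 88 and 70 at equal summed FPKM, and 83 and 76 under quantile normalization. Of the 10 most abundant embryonic lncRNAs 8 fell, among which those at embryonic ranks 1, 7 and 10 stayed within adult rank 17. Of the 10 most abundant adult ones 3 rose, 1 fell and 6 were not called. The choice by level at an age favours these directions. The lists of 10, ranked on means, shared 2 lncRNAs, and the lists of 50 shared 23. Between single libraries of different ages 2 to 3 of 10 were shared, against 4 to 7 between adult and 7 to 9 between embryonic libraries. For lists of 50 these numbers were 18 to 22 between the ages, 29 to 38 within 42 weeks and 40 to 42 within day 13.

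TU66213 had the highest mean at both ages, though TU63378 was above it in the first 42-week library. It fell to 47.2, 132 and 122 FPKM in the 42-week libraries, against 307, 236.5 and 295 FPKM in the embryonic ones (log2 difference -1.60 ± 0.37 SE, adjusted p = 0.00808). Its groups did not overlap, which the choice of TU66213 and TU58434 for naming required. Overlap was absent in 48.4% of the tested lncRNAs, in either direction. After quantile normalization, which gives the top-ranked lncRNA of every library the same value, the difference of TU66213 was -0.26 and no longer called. TU58434, at rank 59 in the adult and 2 in the embryo, had 1.545, 8.83 and 3.49 FPKM at 42 weeks against 81.6, 98.8 and 169.5 FPKM at day 13 (log2 difference -4.54 ± 0.71 SE, adjusted p = 0.000997). The lncRNA at embryonic rank 3 followed it closely, and the ratio between both was 1.03 to 1.08 in all 6 libraries. Whether reads are shared between the pair cannot be told from these tables, so they may not be separate observations. The lncRNAs at embryonic ranks 4 and 6 were at ranks 412 and 1346 in the adult, and that at rank 6 had 0.343, 0.520 and 0.746 FPKM at 42 weeks against 33.5, 34.0 and 13.5 FPKM at day 13.

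Of the adult lncRNAs, TU63378 stood at rank 2, with 64.4, 60.4 and 84.1 FPKM at 42 weeks against 1.85, 1.74 and 1.42 FPKM at day 13, where it was at rank 345. Like TU11915, it was named from the lncRNAs called higher without overlap. Its log2 difference was 4.71 ± 0.32 (SE; limma, adjusted p = 5.99e-06). TU11915 stood at rank 5 in the adult, with 9.90, 15.04 and 23.1 FPKM in the adult libraries and 0.151, 0.0758 and 0.172 FPKM in the embryonic ones, where it was at rank 3692 (log2 difference 3.84 ± 0.27 SE, adjusted p = 5.99e-06). The lncRNA at adult rank 8 had 16.85, 21.3 and 6.95 FPKM against 0.233, 0.141 and 0.181 FPKM. TU46211 kept its place, at rank 3 in the adult and 5 in the embryo, with 22.7, 22.5 and 24.7 FPKM against 45.3, 39.0 and 44.4 FPKM. Although its groups did not overlap, its log2 difference of -0.85 ± 0.38 was not called (SE; adjusted p = 0.0988). The SE includes the spread of the 5-week libraries, which had 14.55, 42.1 and 14.8 FPKM. In the limma fit of the compared ages alone the same difference had an adjusted p of 0.0146, again too small in size for a call.

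**Figure D5:**
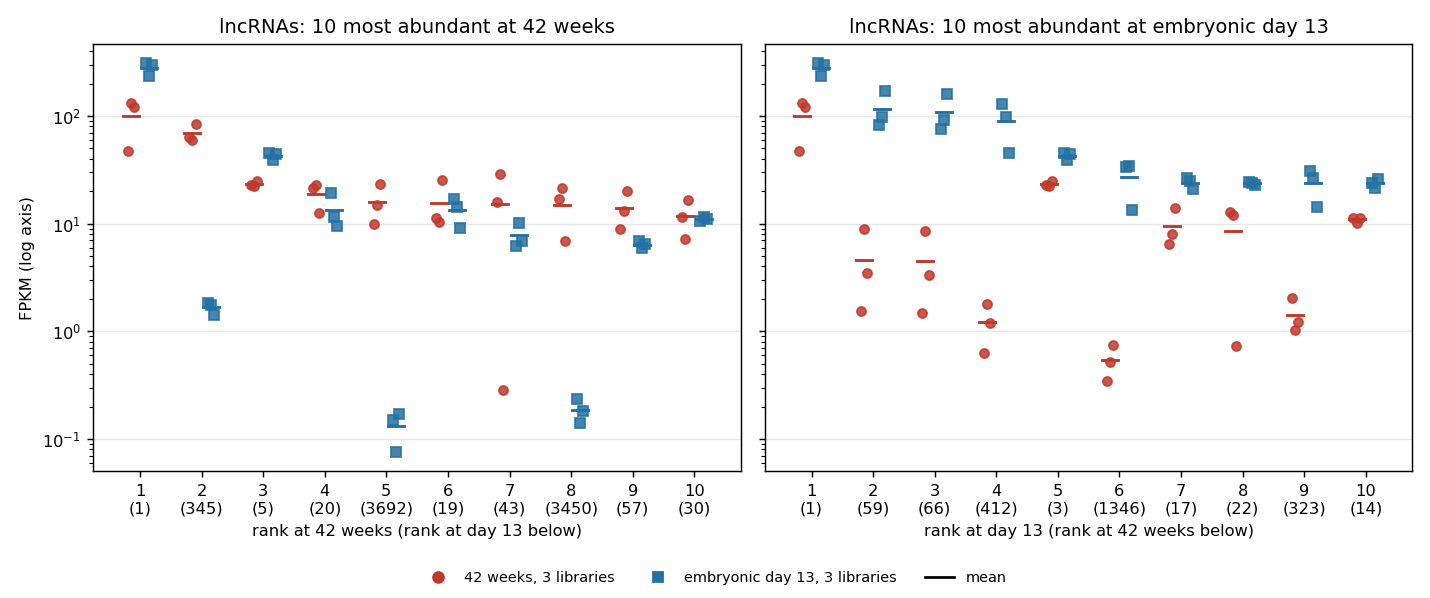
FPKM (log axis) of the 10 most abundant lncRNAs at 42 weeks (left) and at embryonic day 13 (right), with 1 point per library, a bar for the mean of 3 and the rank at the other age in brackets. On the right, embryonic ranks 2, 3, 4, 6 and 9 are far lower at 42 weeks, and on the left, adult ranks 2, 5 and 8 are far lower in the embryo.

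The 27 lncRNAs in the adult top 50 alone held 9.45% ± 0.288 of the summed lncRNA FPKM at 42 weeks and 2.15% ± 0.110 at day 13, while the 27 in the embryonic list alone held 2.10% ± 0.207 at 42 weeks and 15.8% ± 0.746 at day 13 (SD, n = 3 each). By rank, 21.1% of the tested lncRNAs were better and 28.3% worse in all 3 adult libraries (49.5% without overlap), and in FPKM 15.4% were above and 33% below (48.4%). Of the 27 that entered 12 were called higher, and of the 27 that left 25 were called lower, counts whose direction again follows from the choice of the lists. The 23 shared ones held 11.5% ± 1.45 at 42 weeks and 14.8% ± 0.676 at day 13. It took 406, 369 and 462 lncRNAs to reach 50% of the signal in the 42-week libraries, against 259, 241 and 261 in the embryonic ones (two-sided exact permutation test, p = 0.1, the smallest possible). The share in common was 57.6% to 59.9% between the ages, 72.9% to 78.7% within 42 weeks and 82.3% to 84.1% within day 13. Spearman's rho over the tested lncRNAs, most of which have low FPKM, was 0.201 to 0.240 between the ages, 0.613 to 0.748 within 42 weeks and 0.781 to 0.802 within day 13. A lncRNA could pass the filter through the 3 libraries of 1 age alone. All listed lncRNAs have values above 0 in all 9 libraries, so one at 0 in any library is missing. How far these limits affected the lists, rho between the ages, the shares in common and those without overlap was not tested.

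In 2 lncRNAs of the adult top 50 the third 42-week library was more than 10-fold under both others, the same library as for the mRNA at rank 17, and 0 of the embryonic top 50 had such a library. TU64731, at adult rank 7, had 15.8, 29.1 and 0.287 FPKM at 42 weeks against 6.16, 10.2 and 6.96 FPKM at day 13. TU28188, at adult rank 22 and embryonic rank 8, had 12.8, 12.1 and 0.738 FPKM against 24.6, 24.1 and 22.8 FPKM. Neither was called, with adjusted p-values of 0.995 and 0.11, and both were singled out after their values were seen. In the same added fit without the third library TU64731 had a log2 difference of 1.38 ± 0.42 (SE; adjusted p = 0.0276). Here too the values left out are those that singled the lncRNAs out, so the fit is no test of a change. That of TU28188 was then -0.88 ± 0.73 (SE; adjusted p = 0.363), against -1.87 ± 0.86 with it.

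The 5-week libraries place part of these exchanges in time. Of the 50 mRNAs that had entered the top 100 by 42 weeks 24 were in the top 100 at 5 weeks, and of the 50 that had left it 13 were still there at 5 weeks. For the 27 lncRNAs that entered and the 27 that left the top 50, the numbers in the 5-week list were 10 and 5. By level at that age, 35.8% rose and 32.1% fell between day 13 and 42 weeks among 53 mRNAs with at least 1000 FPKM, against 5.74% and 29.9% among 7410 under 10 FPKM. After median scaling the numbers were 20 higher and 10 lower of the 53, and 945 and 896 of the 7410. For lncRNAs 2 were higher and 6 lower among 18 with at least 10 FPKM at 5 weeks, and 24 and 67 among 1707 under 1 FPKM. After median scaling these were 3 and 4 of the 18, and 41 and 48 of the 1707. The log2(FPKM + 1) scale understates differences at low FPKM. These shares therefore do not show whether abundant features changed more often. Of the 50 lncRNAs most abundant at 5 weeks 4 were higher and 7 lower (22%, against 7.86% of all tested), and after median scaling 5 and 5, against 7.59% of all tested.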

How the data were processed

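Liver RNA was measured in 9 libraries, 3 per age; the 42-week and day-13 libraries are compared here, and the 5-week ones enter the fit. Per the labels' protocols, total RNA was extracted with TRIzol, and an Illumina TruSeq RNA kit gave the libraries. Per the submitters' processing notes, the tools were DESeq2, Cufflinks 2.2.1, StringTie 1.3.3 and HISAT, without a stated role. The build and the annotation behind the values were not given in the sources used here. Both deposited tables, 1 of mRNAs and 1 of lncRNAs, hold log2 values of FPKM. An offset of 1 FPKM was inferred from their lowest values: taken that way, every mRNA value is 0 or at least 0.100 FPKM, and the lowest lncRNA value lies just above 0. Exact zeros (5041 of 125541 mRNA values) stand for less than 0.1 FPKM. Depth is unknown, so no count model was used; 0 columns were left aside.

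Differences are 42 weeks minus day 13. With limma 3.58.1 in R 4.3.3, all 9 libraries of a table were fitted with a mean for each age and a variance trend. Two-sided p-values were adjusted within a table (Benjamini-Hochberg), and calls were made at 0.05 with a log2 difference of 1 or more in size. Nearly every tested mRNA past the latter was called (4352 of 4397). SEs pool the spread of all 9 libraries, and p-values measure the spread between these libraries. The fit was tested on simulated data with independent noise of equal spread in every library. That test does not cover a library that stands apart, as the third 42-week one did. Lists were ranked on mean FPKM. The named features are, among called ones without overlap, the 2 highest per direction by mean FPKM in the higher age, and the highest ones kept in the top 20 (mRNAs) or top 10 (lncRNAs) of both ages without a call. The members, lists and tests were chosen with earlier results of these data known. Planned gene lists by symbol were not analysed here, since 0 identifiers matched. Alternatives were scaling, filter, offset, variance trend, samples in the fit, the replicate block, list size, the average behind the ranking and leaving out each library.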

Additional observations from a re-analysis of the deposited data

How the results depend on the processing

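The balance of mRNA calls depended on scaling: 790 higher and 3562 lower as deposited, 1593 and 1426 after median scaling, 1450 and 1578 after quantile normalization. The median log2 difference was -0.61 as deposited, -0.0039 and -0.055 after these, and -0.35 after scaling to equal summed FPKM, which was added after seeing the data. Lower genes made up 81.8%, 47.2%, 52.1% and 70.1% of the mRNA calls under these 4 scalings. Called under all 4 were 790 higher and 1417 lower mRNAs, and 51 higher and 69 lower lncRNAs. Against 51 higher and 123 lower lncRNAs, higher calls numbered 78 after median scaling, 83 after quantile normalization, 88 at equal sums and 213 with an offset of 0.1 FPKM, and lower ones 76 after quantile normalization, 70 at equal sums and 469 with that offset; lower lncRNAs made up 70.7%, 53.6%, 47.8% and 44.3% of the calls under the 4 scalings.

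Leaving out 1 library gave 725 to 909 higher and 3142 to 4183 lower mRNAs, and 44 to 71 higher and 110 to 144 lower lncRNAs. The share of the top list common to both ages was 50% for 100 mRNAs, 35% for 20, 46% for 50 and 58% for 200, and 48% to 52% without a library. For lncRNAs it was 46% for 50, 30% for 20 and 20% for 10, and 42% to 50% without a library. The mean share held by the 20 most abundant mRNAs was higher at 42 weeks in every alternative, by 8.05 to 13.4 points without a library. Without the 4 adult genes under 1 FPKM at day 13, also added after seeing the data, it was higher by 1.23 points only. The libraries of both ages then overlapped, which the choice of these 4 genes favours. Differences of mRNAs kept at both ages that changed sign were 0.10 for ENSGALG00000035219, 0.10 for ENSGALG00000009268, 0.55 for ENSGALG00000009262 and 0.19 for ENSGALG00000009266 after median scaling, and 0.27 for ENSGALG00000009262 at equal sums and -0.215 to 0.0385 for it without a library (0.0138 without the second 42-week library). That of TU46211 was 0.38 after quantile normalization. None of these was called. Apart from scaling, the causes were not tested.

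With the replicate number as a block 801 mRNAs were higher and 3565 lower, and 53 and 122 lncRNAs. Whether the numbers pair the libraries cannot be settled here, since the correlations were small and differed between mRNAs and lncRNAs. Deviations of same-numbered libraries correlated at -0.0499, 0.145 and 0.0477 for mRNAs. For lncRNAs the values were 0.0218, 0.0474 and 0.0176, where each library correlated best with its own number.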
